A study of Homo sapiens with 2 samples.

Results

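The miR-29 family was examined here through 6 mature miRNAs chosen by name, namely hsa-miR-29a-3p, hsa-miR-29b-3p, hsa-miR-29c-3p, hsa-miR-29a-5p, hsa-miR-29b-1-5p and hsa-miR-29c-5p. All 6 names were listed, among 859 mature human miRNAs in all. A further arm of the family, hsa-miR-29b-2-5p, was also listed and is described beside them, outside the counts of members. The libraries came from A549, an established human lung adenocarcinoma cell line, grown in DMEM with fetal calf serum and kept for 24 h either at 20% oxygen (normoxia) or at 1.2% oxygen (hypoxia). Small RNAs were ligated to adapters, amplified by PCR and sequenced on the SOLiD platform, with 1 library per condition. The comparison asks how the small RNAs of these cells differ between both oxygen levels.

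The miR-29 family is conserved among vertebrates, and its 3p arms carry the same seed, the stretch at the 5′-end that pairs with target messenger RNAs. These arms are known to repress collagens and other extracellular matrix genes, for which they are seen as antifibrotic in the lung, and also the DNA methyltransferases DNMT3A and DNMT3B and the survival factor MCL1. In each hairpin the 3p arm is the usual guide strand, loaded into Argonaute, and the 5p arm is the passenger strand.

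The mature sequences of the 3p arms are shown because the members share their targets through the seed (bases 2 to 8, in capitals) and differ elsewhere. They are RefSeq sequences (GRCh38.p14), written 5′ to 3′.
hsa-miR-29a-3p: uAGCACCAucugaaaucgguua
hsa-miR-29b-3p: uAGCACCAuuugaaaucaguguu
hsa-miR-29c-3p: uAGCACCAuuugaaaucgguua
Counted from 1 at the 5′-end, miR-29a-3p differs from miR-29c-3p by 1 substitution, C10U, so that 21 of 22 bases are the same. From miR-29c-3p to miR-29b-3p the substitutions are G18A, U21G and A22U, and miR-29b-3p is 1 base longer. Because the members are this close, a read with a sequencing error or a trimmed end may be placed on another member, and the split between them is uncertain to that extent. No other mature miRNA of the 859 has the seed of the 3p arms. The nearest of the 852 mature miRNAs outside the family lies at an edit distance of 8 (substitutions, insertions and deletions) from each 3p arm. The last 6 bases of miR-29b-3p are AGUGUU, a hexamer known to direct this miRNA into the nucleus. It is found in 7 of the 859 mature sequences, and miR-29b-3p is the 1 that ends with it.

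The 5p arms, again with bases 2 to 8 in capitals, do not share a seed with the 3p arms or among themselves.
hsa-miR-29a-5p: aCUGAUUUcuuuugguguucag
hsa-miR-29b-1-5p: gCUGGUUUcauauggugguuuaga
hsa-miR-29b-2-5p: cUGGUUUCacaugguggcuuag
hsa-miR-29c-5p: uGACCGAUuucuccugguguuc
Each of these 4 seeds belongs to 1 mature miRNA of the 859. The 5p arms of miR-29b start 1 base apart on otherwise similar hairpins, which shifts the seed by 1 base. Over the 22 bases they share, the substitutions from miR-29b-2-5p to miR-29b-1-5p are C10U and C18U, counted from 1 at the 5′-end of miR-29b-2-5p. All 7 names matched RefSeq, and the 7 sequences were the same as those used for counting.

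The family comes from 4 hairpins at 2 loci, and the place of both arms (in capitals) shows which counts can be assigned to a locus.
MIR29A: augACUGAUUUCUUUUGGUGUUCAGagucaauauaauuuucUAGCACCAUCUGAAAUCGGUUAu
MIR29B1: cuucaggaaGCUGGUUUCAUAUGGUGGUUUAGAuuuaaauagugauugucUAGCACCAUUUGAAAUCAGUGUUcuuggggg
MIR29B2: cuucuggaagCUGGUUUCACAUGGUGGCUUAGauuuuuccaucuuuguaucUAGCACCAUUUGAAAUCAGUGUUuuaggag
MIR29C: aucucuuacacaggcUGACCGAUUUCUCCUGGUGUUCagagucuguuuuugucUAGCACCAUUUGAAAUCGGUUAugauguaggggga
In GRCh38, MIR29A (chr7:130876747-130876810) and MIR29B1 (chr7:130877459-130877539) lie on the minus strand of chromosome 7, with 648 bases between them. In GENCODE 29, MIR29B1 is within an exon of the lincRNA LINC-PINT, transcribed from the same strand, and MIR29A overlaps the end of that exon by 2 bases. Both also fall in an intron of the lincRNA AC016831.6, on the same strand, and within LINC00513 on the opposite strand. MIR29C (chr1:207801852-207801939) and MIR29B2 (chr1:207802443-207802523) lie on the minus strand of chromosome 1, with 503 bases between them, and both are within an exon of the lincRNA MIR29B2CHG. The mature miR-29b-3p is the same from MIR29B1 and MIR29B2, so its counts cannot be divided between the loci, whereas each other arm belongs to 1 hairpin.

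Values are raw read counts and CPM, the counts per 1000000 counts on mature miRNAs. The normoxia library had 4514818 counts on mature miRNAs out of 6449337 in all, and the hypoxia library 8600160 out of 13115226. The arms are 22 to 24 bases long, so CPM was compared between them without a correction for length. Intervals are exact 95% intervals (Clopper-Pearson for levels and shares, conditional binomial for ratios) and reflect only counting, so that errors of ligation, PCR or scaling lie outside them. Each condition has 1 library, without replicates, so differences between conditions were not tested and have no p-value. In such bulk libraries, fewer cells that express a miRNA and less of it per cell cannot be told apart.

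Epithelial miRNAs were checked against the label of the cell line. All 5 (miR-200a-3p, miR-200b-3p, miR-200c-3p, miR-141-3p and miR-429) were detected, with a summed level of 1165 CPM in normoxia and 1360 CPM in hypoxia, most of it from miR-200b-3p (880 and 1085 CPM). The markers did not move together, as the log2 ratio of hypoxia to normoxia CPM was 0.30 for miR-200b-3p but -0.55 (counting interval -0.84 to -0.25) for miR-141-3p, with 37.2 and 25.5 CPM, and -0.07 (-0.24 to 0.11) for miR-429. Among blood markers, miR-142-3p had 5 and 6 counts, miR-223-3p and miR-144-3p were not listed, and the list summed to 19.7 and 23.1 CPM, mainly from miR-451a. The liver marker miR-122-5p had 4 counts in each library, and of 4 muscle markers only miR-133a was listed, with 0 and 18 counts. Endothelial miR-126-3p and miR-126-5p summed to 222 and 221 CPM, and the mesenchymal miR-143-3p, miR-145-5p and miR-199a-5p to 172 and 156 CPM. The neural list reached 292 and 388 CPM, led by miR-128, multiciliated markers 12.6 and 7.44 CPM, and basal markers 6.42 and 5.23 CPM. The part of these lists in the values of miR-29 was not tested. miR-210, the miRNA best known for its induction by low oxygen, had 4307 counts (954 CPM) in the normoxia library and 22849 (2657 CPM) in the hypoxia library.

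The guide arms made up almost all of the family. miR-29c-3p was its most abundant member, with 18931 counts in normoxia (4193 CPM, interval 4134 to 4253) and 30843 in hypoxia (3586 CPM, 3546 to 3627). miR-29a-3p followed with 7673 counts in normoxia (1699.5 CPM, 1662 to 1738) and 12221 in hypoxia (1421 CPM, 1396 to 1446). miR-29b-3p had 3887 counts in normoxia (861 CPM, 834 to 888) and 4861 in hypoxia (565 CPM, 549.4 to 581). Each of the 3 guides was lower in the hypoxia library on this scale, as were 137 of the 339 mature miRNAs past a filter on level given below. Among all mature miRNAs, miR-29c-3p ranked 17 in normoxia and 23 in hypoxia, miR-29a-3p 41 and 48, and miR-29b-3p 67 and 72.

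The passenger arms were far less abundant. miR-29b-1-5p had 409 counts in normoxia (90.6 CPM, 82.0 to 99.8) and 749 in hypoxia (87.1 CPM, 81.0 to 93.6). miR-29b-2-5p, the 5p arm of the chromosome 1 copy, had 120 counts (26.6 CPM, 22.0 to 31.8) and 280 counts (32.6 CPM, 28.9 to 36.6). Among the mature arms, these 5p arms tell the miR-29b hairpins apart. miR-29c-5p had 112 counts in normoxia (24.8 CPM, 20.4 to 29.8) and 279 in hypoxia (32.4 CPM, 28.7 to 36.5). miR-29a-5p was the lowest, with 54 counts in normoxia (12.0 CPM, 8.99 to 15.6) and 48 in hypoxia (5.58 CPM, 4.12 to 7.40). On this scale miR-29a-5p and miR-29b-1-5p were lower in the hypoxia library, and miR-29b-2-5p and miR-29c-5p were higher, as were 202 of the 339. The counting intervals of these ratios, of which some hold 0, are given below.

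**Figure D1:**
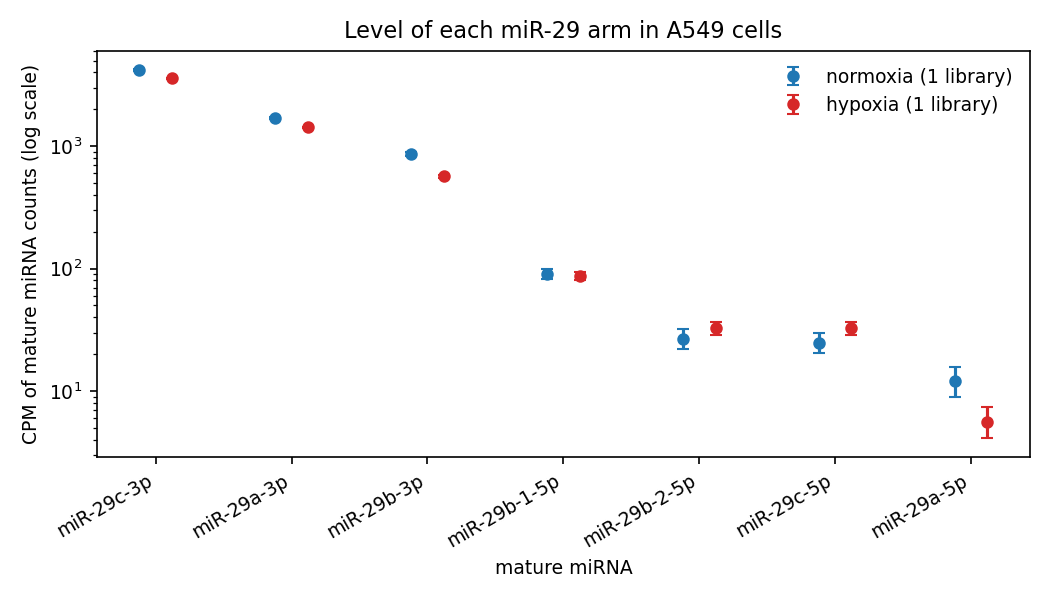
Level of each miR-29 arm (CPM of mature miRNA counts, log scale) in the normoxia and the hypoxia library, with points for single libraries and bars for exact 95% counting intervals, which are smaller than the points for the 3p arms. The 3p arms lie between 565 and 4193 CPM and the 5p arms between 5.58 and 90.6 CPM.

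The order of the arms was examined within each library, where scaling plays no role. In normoxia, miR-29c-3p had 2.47 times the counts of miR-29a-3p (interval 2.40 to 2.53), and miR-29a-3p had 1.97 times those of miR-29b-3p (1.90 to 2.05). In hypoxia these ratios were 2.52 (2.47 to 2.58) and 2.51 (2.43 to 2.60). Below the guides, miR-29b-1-5p exceeded miR-29b-2-5p, and miR-29c-5p exceeded miR-29a-5p, in both libraries. The neighbours miR-29b-2-5p and miR-29c-5p did not differ beyond counting error, with ratios of 1.07 (0.82 to 1.40) in normoxia and 1.00 (0.85 to 1.19) in hypoxia.

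The 6 members together took 31066 counts of the normoxia library, or 0.688% of mature miRNA counts (interval 0.680% to 0.696%), and 49001 of the hypoxia library, or 0.570% (0.565% to 0.575%). A single miRNA, miR-21-5p, held 72.2% of this denominator in normoxia and 68.4% in hypoxia, and with its counts left out the shares of the family were 2.48% and 1.80%. Within the family, miR-29c-3p provided 60.9% of the normoxia counts and 62.9% of the hypoxia counts, and miR-29a-3p provided 24.7% and 24.9%. miR-29b-3p provided 12.5% in normoxia (12.1% to 12.9%) and 9.92% in hypoxia (9.66% to 10.2%). Thus miR-29b-3p was the guide whose part of the family was smaller in the hypoxia library.

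When mature miRNAs were pooled by seed, the 859 fell into 701 seeds, of which 92 had more than 1 member. The seed of the miR-29 guides ranked 14 of 701 by summed counts in normoxia (6754 CPM) and 19 in hypoxia (5573 CPM). In normoxia it lay between the seed of miR-125a-5p (8292 CPM) and that of miR-16-5p (5596 CPM). In hypoxia it lay between the seed of miR-26a-5p (5935 CPM) and that of miR-151a-5p (4101 CPM). The larger seed families of miR-30a-5p, with 5 members, and of let-7a-5p, with 11, had log2 ratios of 0.33 (0.32 to 0.34) and 0.13 (0.12 to 0.15), against -0.28 (-0.30 to -0.26) for the miR-29 guides. The direction of the let-7a-5p seed depends on the scaling, as it was at 0.02 with TMM and at -0.06 without the most abundant miRNAs in the totals, while those of the miR-30a-5p seed and the miR-29 guides kept their signs under the 4 other scalings. These scalings of the seed families were added after the results were seen. Each lowers all ratios by a constant, so the miR-29 guides, below 0 on the main scale, kept their sign by construction. Among the neighbours in rank, the seed of miR-16-5p, with 6 members, lay lower than miR-29 at -0.51 (-0.53 to -0.48), and those of miR-125a-5p, miR-26a-5p and miR-151a-5p lay higher at 0.25, 0.34 and 0.65. The ratio of the miR-29 seed was thus between those of other abundant seeds.

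Each arm was then compared between the conditions as the log2 ratio of its hypoxia CPM to its normoxia CPM, without a prior count. It was -0.23 (interval -0.25 to -0.20) for miR-29c-3p, -0.26 (-0.30 to -0.22) for miR-29a-3p and -0.61 (-0.67 to -0.55) for miR-29b-3p. Among the passenger arms it was -0.06 (-0.23 to 0.12) for miR-29b-1-5p, 0.29 (-0.02 to 0.61) for miR-29b-2-5p and 0.39 (0.07 to 0.72) for miR-29c-5p. For miR-29a-5p it was -1.10 (-1.69 to -0.51). Thus 5 of the 6 members had a ratio below 0, of which miR-29b-1-5p has an interval that holds 0, and 1, miR-29c-5p, had a ratio above 0. Of the 339 miRNAs past the filter given below, 137 were below 0 and 202 above, a split that moves with the scaling. The summed counts of the 6 members gave -0.27 (-0.29 to -0.25), which is led by miR-29c-3p. The summed 5p members gave -0.03 (-0.17 to 0.12), with 575 counts in normoxia and 1076 in hypoxia. This sum is led by miR-29b-1-5p and joins miR-29a-5p and miR-29c-5p, whose ratios lie on opposite sides of 0. When the most abundant miRNAs were dropped from the totals, a setting added for this sum after its value was seen, it was -0.22 (-0.37 to -0.07).

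A rule of size was applied to all mature miRNAs, by which a miRNA counts as higher or lower if its log2 ratio is 0.9 or more away from 0 and its log2 CPM, averaged over the libraries, exceeds 3. All 6 members were among the 339 miRNAs past the filter on the mean. By this rule 1 of the 6 members, miR-29a-5p, was lower in hypoxia, and none was higher, beside 3.24% lower (11 miRNAs) and 3.54% higher (12 miRNAs) of the 339, or 6.78% in all. This background split depends on the scaling, with 8 higher and 15 lower under TMM and 5 higher and 19 lower without the most abundant miRNAs in the totals, and with 17 higher and 8 lower after thinning of the hypoxia library. miR-29a-5p rests on 54 and 48 counts, its mean log2 CPM was 3.09, close to the filter, and the interval of its ratio reaches past the limit of -0.9 on both sides. It no longer passed the rule when the hypoxia library was thinned to the depth of normoxia (log2 ratio -0.90 after rounding, just inside the limit), or with a mean log2 CPM above 4, a filter chosen after its values were seen. How reads were divided between this arm and the separate MIR29A hairpin entry, with 17 and 54 counts, is not known.

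The 339 miRNAs had a median log2 ratio of 0.08 (SD 0.51), with 202 above 0 and 137 below. Scaling by TMM moved this median by -0.11, and totals without the most abundant miRNAs moved it by -0.20, so the members are also given relative to the median, on which these scalings have no effect. Relative to it, miR-29c-3p was at -0.30, miR-29a-3p at -0.34 and miR-29b-3p at -0.69. The 5p arms were at -0.14 for miR-29b-1-5p, 0.21 for miR-29b-2-5p, 0.31 for miR-29c-5p and -1.18 for miR-29a-5p. Counted from the lowest ratio, miR-29a-5p ranked 6 of 339, miR-29b-3p 26, miR-29a-3p 73, miR-29c-3p 85, miR-29b-1-5p 117, miR-29b-2-5p 228 and miR-29c-5p 254. The guides were therefore in the lower part of the distribution, within the range that most miRNAs of these libraries took (5th percentile -0.74, 95th percentile 0.83). Each arm kept the sign of its ratio in the 7 other settings of scaling, prior count and depth, but not its size. The 4 other scalings each lowered all ratios by a constant, so an arm below 0 could not change its sign under them. Each guide left its counting interval in 4 of the 7, with ratios down to -0.42 for miR-29c-3p, -0.45 for miR-29a-3p and -0.80 for miR-29b-3p, and miR-29b-1-5p did so in 1. The interval of miR-29c-5p, above 0 on the main scale, held 0 under each of the 4 other scalings, with a ratio down to 0.19. That of miR-29b-1-5p, which held 0 on the main scale, held it under 3 of the 4, and lay below 0 without the most abundant miRNAs in the totals, at a ratio of -0.25. The ratio of miR-29b-2-5p was 0.10 in the same setting, and its interval held 0 on each scale.

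**Figure D2:**
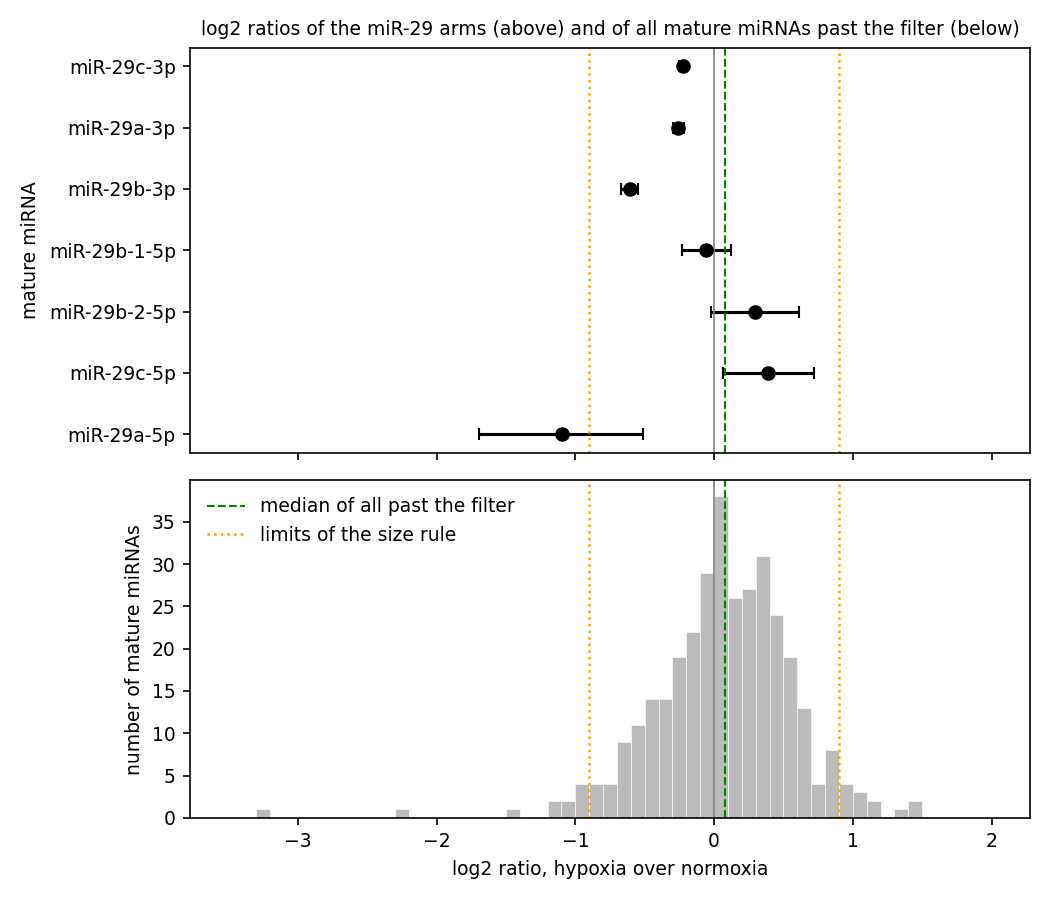
log2 ratio of hypoxia over normoxia for each miR-29 arm (above, points with 95% counting intervals, 1 library per condition) and its distribution over the 339 mature miRNAs past the filter (below, number of miRNAs per bin of 0.1). The green line is the median of 0.08 and the dotted lines are the limits of the size rule at 0.9 in either direction. miR-29a-5p, at -1.10, is the arm outside these limits, and its bar crosses the lower one.

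Differences between members do not depend on scaling. The ratio of miR-29b-3p was lower than that of miR-29c-3p by 0.38 on the log2 scale (-0.38, standard error 0.03 from counting) and lower than that of miR-29a-3p by 0.35 (-0.35, standard error 0.04). miR-29c-3p thus had 4.87 times the counts of miR-29b-3p in normoxia and 6.34 times in hypoxia. The ratios of miR-29a-3p and miR-29c-3p, which come from different chromosomes and differ by 1 base, did not differ beyond counting error (-0.03, interval -0.08 to 0.02). Gaps as large as that between miR-29b-3p and miR-29c-3p were common among miRNAs with a shared seed. Of 148 other such pairs past the filter, 71 differed by as much, and the median absolute difference was 0.37. These pairs overlap in their members, so they are not independent. They also include miRNAs with few counts, such as miR-148a-3p with 41 and 61, whose gaps hold more counting error. Between the passenger arms, which do not share a seed, miR-29a-5p and miR-29c-5p differed by -1.49 (standard error 0.33). Of the 148 pairs, 9 differed by as much, and all 9 join a single miRNA, miR-4500 at -2.23, to others of the let-7a-5p seed. The 5p arms of miR-29b did not differ beyond counting error (miR-29b-1-5p minus miR-29b-2-5p -0.35, interval -0.70 to 0.00).

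The products that belong to a single locus gave opposite orders for the chromosomes. By the guides, miR-29c-3p from chromosome 1 had 2.47 times the counts of miR-29a-3p from chromosome 7 in normoxia and 2.52 times in hypoxia, as above. By the passenger arms of miR-29b, chromosome 7 was ahead, as miR-29b-1-5p had 3.41 times the counts of miR-29b-2-5p in normoxia (2.77 to 4.21) and 2.68 times in hypoxia (2.33 to 3.08). The passenger arms of the other hairpins followed the guides, with 2.07 times as many counts for miR-29c-5p as for miR-29a-5p in normoxia (1.49 to 2.93) and 5.81 times in hypoxia (4.27 to 8.07). The counts therefore give no single order of the loci, and how far ligation differs between these sequences was not tested.

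Arm balance, the 3p count over the 5p count of a hairpin, separated miR-29b from the other members. For MIR29A it was 142 in normoxia (interval 109 to 189), while the hypoxia library gave 255 (192 to 346). It was 169 for MIR29C in normoxia (140 to 205) and 111 in hypoxia (98.3 to 125). For miR-29b, with the 5p arms of both hairpins summed because their 3p arm is the same, it was 7.35 in normoxia (6.71 to 8.06) and 4.72 in hypoxia (4.42 to 5.06). The passenger arms thus made up 12.0% of the miR-29b counts in normoxia and 17.5% in hypoxia, against less than 1% for MIR29A (0.699% and 0.391%) and MIR29C (0.588% and 0.896%). Among 183 hairpins with counts on both arms in both libraries, the 3p arm was ahead in 75 in normoxia and 76 in hypoxia. A balance further toward the 3p arm than that of MIR29A was seen in 14 of them in normoxia and 9 in hypoxia, than that of MIR29C in 12 and 16, and than that of miR-29b in 40 and 50.

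Between the conditions, the balance moved toward the 3p arm for MIR29A (log2 change 0.84, standard error 0.29 from counting) and toward the 5p arm for MIR29C (-0.61, standard error 0.16) and miR-29b (-0.64, standard error 0.08). Each exceeded counting error, with intervals of the libraries that did not overlap. For MIR29A the gap was narrow, as the interval ended at 189 in normoxia and began at 192 in hypoxia. After thinning of the hypoxia library its balance there was 221, and that smaller change was not set against counting error. Of 71 other hairpins with both arms past the filter, the balance moved by as much as that of MIR29A in 13, of MIR29C in 21 and of miR-29b in 20, in either direction, with a median absolute change of 0.40. For miR-29b, the guide was lower in the hypoxia library while its passenger arms were at -0.06 and 0.29, so the arms differed in their ratios.

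**Figure D3:**
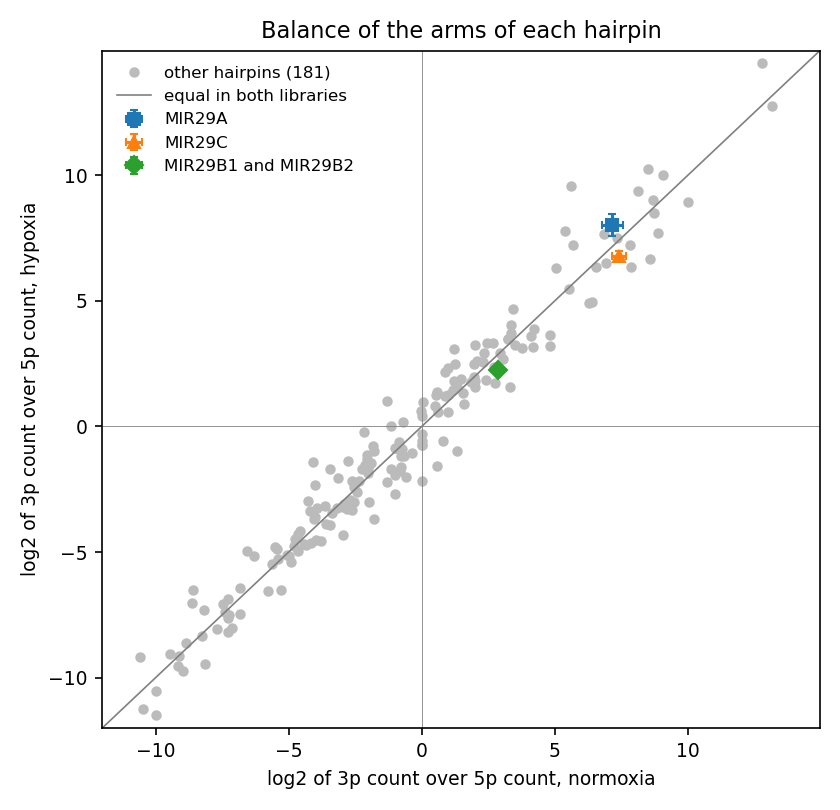
Arm balance of hairpins, as log2 of the 3p count over the 5p count, in normoxia (horizontal) and hypoxia (vertical), with 1 library each. Grey points are 181 other hairpins, coloured points are the miR-29 hairpins with 95% counting intervals, and the line marks equal balance in both libraries. MIR29A and MIR29C lie far toward the 3p arm, at 7.15 and 7.40 in normoxia, and miR-29b at 2.88.

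The mature miRNAs nearest to each guide in the plane of log2 CPM in normoxia and log2 CPM in hypoxia (Euclidean distance over the 2 libraries) were then listed. This distance reflects the level more than the change between the conditions. For miR-29c-3p they were miR-181b-5p (3984 and 3357 CPM, distance 0.12), let-7a-5p (distance 0.23) and miR-20a-5p (distance 0.38), with log2 ratios of -0.25, 0.03 and -0.55. For miR-29a-3p they were let-7i-5p (1607 and 1276 CPM, distance 0.17), let-7b-5p (distance 0.26) and miR-15b-5p (distance 0.32), with log2 ratios of -0.33, 0.03 and -0.50. For miR-29b-3p they were miR-15b-3p (805 and 638 CPM, distance 0.20), let-7g-5p (distance 0.38) and miR-374a-5p (distance 0.45), with log2 ratios of -0.33, -0.62 and -0.04. No arm of miR-29 was among the nearest of another.

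Other miRNAs known to repress DNA methyltransferases, as the miR-29 guides do, were set beside the family. All 7 passed the filter, and none passed the size rule, beside 6.78% of all 339 miRNAs past the filter, a share at which a list this short may well hold none. Their median log2 ratio was 0.04, against 0.07 over all 859 mature miRNAs, with 5 above 0 and 2 below, and the median lay below 0 under each other scaling. miR-148b-3p, of a family known to target DNMT3B, had 560 CPM in normoxia and 979 CPM in hypoxia, a log2 ratio of 0.81 (0.74 to 0.87). miR-148a-3p, of the same seed, was at -0.36 (-0.95 to 0.25) with 41 and 61 counts. The others were miR-342-3p at 0.26, miR-152 at 0.16, miR-101-3p at 0.04, miR-185-5p at 0.00 and miR-143-3p at -0.11. Against these, the guides of miR-29 were at -0.23 to -0.61, and their summed level of 6754 CPM in normoxia and 5573 CPM in hypoxia exceeded the 1852 and 2344 CPM of the 7 together.

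The list of miRNAs known from lung fibrosis and matrix control, to which miR-29 also belongs, had 11 other members. Of these, 8 passed the filter and 0 of the 8 passed the size rule, again too few to set beside 6.78%, and the median log2 ratio was 0.06, again below 0 under each other scaling, and 0.16 after thinning of the hypoxia library. The profibrotic miR-21-5p, the most abundant miRNA of both libraries, was at -0.08, and miR-26a-5p, held to be antifibrotic, was at 0.33 (4410 and 5545 CPM). miR-200b-3p was at 0.30, miR-30a-5p at 0.15, miR-200a-3p at 0.06, miR-200c-3p at 0.04, let-7d-5p at -0.04 and miR-199a-5p at -0.19. Below the filter, miR-155-5p had 7 and 26 counts, miR-326 had 11 and 21, and miR-133a had 0 and 18. The interval of the log2 ratio of miR-133a has a lower limit of 1.21 and no upper limit. It enters the median at 1.66, its value with 3 counts in place of 0, and without it the median was 0.05. The guides of miR-29 had lower log2 ratios than each of the 8 members past the filter, although the intervals of miR-199a-5p (-0.45 to 0.08) and miR-200c-3p (-0.30 to 0.38) both hold the ratios of miR-29c-3p and miR-29a-3p.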

How the data were processed

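Small RNA from A549 cells was sequenced in 1 library per condition, and libraries were grouped by their titles. The authors deposited raw read counts per small RNA feature, without normalization, for 5475 features. The submitters' processing notes name the genome build hg19, and the aligner, the counter and the treatment of reads that match several features are not given in the sources used here. Every listed feature has at least 3 counts over both libraries.

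CPM and log2 ratios were computed from the counts of the 859 mature miRNAs. For the filter, log2 CPM was computed with a prior count of 2 and averaged over both libraries. A difference between log2 ratios has a standard error from counting. The named miRNAs are the family's arms, miR-210, the 3 nearest to each guide and the lists of markers, DNA methyltransferase regulators and fibrosis miRNAs. Members and lists were chosen with earlier results of these data known. Alternatives were TMM of edgeR 4.0.16 and size factors of DESeq2 1.42.0 (R 4.3.3), other totals, prior counts, filters, thresholds and denominators, and thinning of the deeper library. The calculation was tested on simulated data. Python 3.11.15 with scipy 1.17.1 was used.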

Additional observations from a re-analysis of the deposited data

Results flagged for a closer look

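The table also lists the 4 hairpins of the family as entries of their own, beside the mature arms, and these counts entered no comparison. The MIR29A hairpin had 17 counts in normoxia and 54 in hypoxia, MIR29B1 14 and 18, MIR29B2 5 and 10, and MIR29C 8 and 22. All exceed 3, the upper limit for a count of 0, and no control library was used. They sum to 44 and 104 counts, and the sources used here do not say how reads that overlap a mature arm were assigned between the entries.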

How the results depend on the processing

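No paired analysis was possible because normoxia and hypoxia had 1 library each, and omitting a library was not run since it would leave no comparison. The log2 ratio of the family was below 0 in each setting tried, at -0.39 with TMM, -0.34 with DESeq2 size factors, -0.47 when the totals left out the 10 most abundant miRNAs of each library, -0.37 with totals of all features and -0.24 as the median of the members, in place of -0.27. Each of the other scalings lowered all ratios by a constant, so the sign of the family could not change under them. The number of members past the size rule was 0 in place of 1 after thinning of the hypoxia library and with a mean log2 CPM above 4, and 1 in the other settings.

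The median of the DNA methyltransferase list was -0.071 with TMM, -0.15 without the most abundant miRNAs and -0.051 with all features, and that of the fibrosis list was -0.14 without the most abundant miRNAs and 0.16 after thinning. By construction, the family's share in normoxia and hypoxia was 0.482% and 0.374% of all counts, 2.48% and 1.80% of mature counts without miR-21-5p, and 0.675% and 0.557% with the 3p arms alone. The split of all miRNAs past the size rule, 12 higher and 11 lower (52.2% higher), was 8 and 15 with TMM or all features (34.8%), 10 and 15 with DESeq2 (40%), 5 and 19 without the most abundant miRNAs (20.8%) and 17 and 8 after thinning (68%). Without a filter it was 149 and 117 of 859, which takes in miRNAs with few counts or 0 in a library, and with a log2 threshold of 1 it was 8 and 7. For the scalings, the filter and the thinning, the cause was not tested. Arm balance and differences between members stayed within their counting intervals after thinning, a single random draw. Depth limits miR-29a-5p and, less so, the other 5p arms.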
